A study of Homo sapiens with 40 samples.

Results

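The regions described here are H3K27me3 peaks of SETDB1 knockout cells that had no counterpart in control cells. They were chosen by comparing the 2 deposited H3K27me3 peak lists: a knockout peak was called new when not 1 bp of it overlapped a control peak. This selected 19550 of 67482 knockout peaks (29.0%, Wilson 95% interval 28.6 to 29.3), covering 46.2 Mb of hg19, or 16.2% of the length of the knockout list. The other 47932 knockout peaks, which overlapped a control peak, are called kept, and the 42708 of 90822 control peaks without a knockout peak are called lost.

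A549 is a human lung adenocarcinoma line with a K-RAS G12S mutation. Control cells were compared with cells in which SETDB1 had been disrupted with CRISPR/Cas9 and guides carried on the PX458 plasmid. The labels do not say whether the knockout cells were 1 clone, a set of clones or a pool, nor what the control cells had received. Per genotype, 3 RNA-seq libraries, 2 Hi-C libraries and 2 ChIP-seq libraries for each of H3K9me3, H3K27me3, H3K27ac, H3K4me3 and CTCF were made, with input libraries beside them, 40 samples in all.

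H3K27me3 is laid down by PRC2, whose catalytic subunit is EZH2 or EZH1, and marks facultative heterochromatin, the silent state of genes that other cell types or stages use. H3K9me3 marks constitutive heterochromatin and is written in part by SETDB1, which is brought to zinc finger gene clusters and to retroelements by KRAB zinc finger proteins and TRIM28. H3K4me3 marks active or poised promoters, H3K27ac active promoters and enhancers, and CTCF is the DNA-binding factor found at many chromatin loop anchors. The acetyl and trimethyl marks of lysine 27 occupy the same residue and exclude each other on 1 histone tail.

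Each peak list was deposited once per genotype, without scores, so shares of peaks have no replicate error, and the intervals given with them cover counting error only. Differences in antibody yield or sequencing depth between the genotypes' lists could not be measured, since the lists carry no depth. The control H3K9me3 list held 102976 peaks over 11.3% of the assembled length, and the knockout list held 53949 wider peaks over 20.5%. In the knockout, H3K9me3 covered 2.14% of bins that were in the A compartment of control cells, down from 9.89%, and 49.2% of B bins, up from 15.5%. SETDB1 mRNA, the check of the labels, was 37.5, 39.6 and 38.7 CPM (counts scaled by library size) in the control libraries and 23.4, 21.2 and 21.1 CPM in the knockout libraries. The genotypes did not overlap, and SETDB1 fell by 0.82 on the log2 scale (SE 0.060, edgeR adjusted p = 1.7e-12). All 6 keratin and adhesion markers of epithelium were detected in both genotypes and rose, while of 5 alveolar type II markers SFTPA1, SFTPB, SFTPC and NKX2-1 had 0 to 12 counts a library and ABCA3 was expressed, at a mean of 64.7 CPM in control and 83.3 CPM in knockout libraries, and rose by 0.37. Of 10 markers of immune, endothelial and fibroblast cells, 1, PECAM1, had no matching gene ID, 3 had enough counts to test and 6 did not. CDH5 and COL1A1 rose and PDGFRA fell, and PTPRC, which defines immune cells, had at most 1 count. The part of these differences in the peaks was not tested.

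New peaks were narrow. Their median width was 1777 bp (95% interval 1758 to 1802), with quartiles of 1086 and 2858 bp, against 3427.5 bp for kept and 2036 bp for lost peaks. The new median was below the kept median on 23 of 23 chromosomes. The new share of the knockout list was lower in each wider class. New peaks made up 54.1% of knockout peaks under 1 kb, 43.2% at 1 to 2 kb, 26.3% at 2 to 5 kb, 10.5% at 5 to 10 kb, 4.75% at 10 to 20 kb and 4.16% at 20 kb or wider. A narrow peak has less length in which to meet a control peak, so this order is partly set by the 1 bp rule. The widest new peak nevertheless spanned 87315 bp. All of these widths come from the lists that selected the peaks and are descriptions.

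The rule had few borderline cases. Only 47 new peaks (0.240%) lay less than 100 bp from a control peak, with a median width of 1456 bp, and 82 kept peaks (0.171%) shared less than 100 bp with control peaks, with a median width of 1299.5 bp. At least 50% of the peak lay inside control peaks for 88.1% of kept peaks. Asking instead for a reciprocal overlap of 50% called 60.1% of knockout peaks new. That rule also counts as new a knockout peak that lies within a much wider control peak, or that lies mostly outside control peaks.

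**Figure D1:**
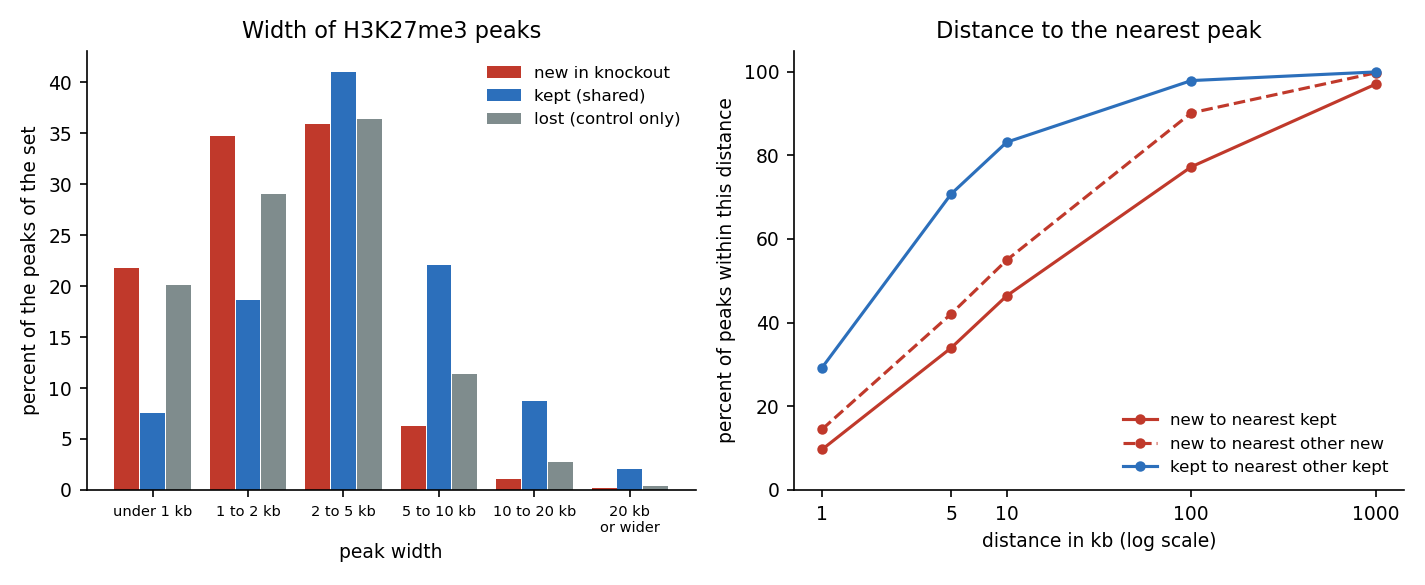
Left, percent of the new, kept and lost H3K27me3 peaks (red, blue and grey bars) in each width class; right, percent of peaks that lie within a given distance (kb, log scale) of the nearest peak of the kind named in the key, points at 1, 5, 10, 100 and 1000 kb. New peaks sit mostly under 5 kb, and their distance curve to kept peaks lies below the curve of kept peaks among themselves at every distance plotted.

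New peaks lay farther from kept peaks than kept peaks lay from each other. The median gap from a new peak to the nearest kept peak was 12294 bp (interval 11789 to 12714), and kept peaks had another kept peak at a median of 1983.5 bp. Still, 34.0% of new peaks lay within 5 kb of a kept peak. At the other end, 22.7% lay more than 100 kb away, against 2.13% of kept peaks, and 579 new peaks (2.96%) lay more than 1 Mb away. The lists contained no gap under 668 bp between knockout peaks, which sets the lower end of every distance.

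New peaks also neighboured each other. The nearest other new peak was 7645 bp away at the median, and 26.4% of new peaks had no other new peak next to them in the knockout list. Runs of 10 or more new peaks with no kept peak between them numbered 183 and held 4816 new peaks, 24.6% of all and 16.4 Mb of their 46.2 Mb. The run with the most peaks held 173 over 8439.63 kb of chromosome 2 (chr2:75999828-84439454), where the control list had 5 H3K27me3 peaks. The next had 166 new peaks at chr7:56184855-64239800 and 163 at chr19:21799369-29383267, with 1 control peak in each span. Those spans on chromosomes 7 and 19 cross the centromeres.

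Near and far new peaks differed in what control cells had at the site. Of the 6640 new peaks up to 5 kb from a kept peak, 13.9% overlapped control H3K9me3. Of the 6458 of these with a compartment value, 65.6% lay in control A compartment. Of the 3868 peaks 100 kb to 1 Mb away, 35.7% overlapped control H3K9me3, and 28.1% of the 3603 with a compartment value lay in A. Of the 579 peaks over 1 Mb away, 64.4% (interval 60.4 to 68.2) overlapped control H3K9me3. Only 467 of the 579 had a compartment value, of which 1.93% lay in A and 26.8% in bins that switched from B to A. The same order of distance held for H3K4me3 of the knockout list, at 4.86%, 6.80% and 15.9% of these classes, whereas control H3K4me3 went the other way, at 4.08%, 2.17% and 0.864%. Distance was measured on the lists that selected the peaks, but the other marks and the compartments were not used by the rule.

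Most new peaks shared their topological domain with peaks that were already there. A control TAD, a self-contacting interval called from Hi-C, held 18804 of the new peaks (96.2%), and 93.2% of these lay in a TAD with a kept peak, while 69.0% of all control TADs held a kept peak. A TAD with no control H3K27me3 peak held 769 new peaks, 4.09%. Such TADs made up 24.2% of all 6118 control TADs, and 299 of the 6118 (4.89%) both lacked control H3K27me3 and held a new peak. Shares of peaks and shares of TADs have different bases, since a TAD with many new peaks weighs more among peaks. Whether new peaks favoured TADs with earlier H3K27me3 was therefore not tested.

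Hi-C separates the genome into an A compartment, rich in active chromatin, and a B compartment, rich in silent chromatin. The deposited signal, 1 signed score per 100 kb bin and replicate, was positive where control H3K27ac covered 6.94% of the length and negative where it covered 0.437%, so positive bins are called A. All 4 replicate columns had a value in 26503 bins. These placed 18664 of the new peaks, and the other 886 (4.53%) fell in bins without a value.

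By count, new peaks followed the compartments almost in proportion to the size of each. By length they were denser in B, covering 1.89% of control B bins and 1.44% of control A bins. Control A held 56.3% of placed new peaks (interval 55.5 to 57.0) and 55.2% of bins, while it held 50.9% of kept and 19.8% of lost peaks. The new share in A was above the lost share on 23 of 23 chromosomes, above the kept share on 15, and above the share of bins on 14. By class, 48.6% of new peaks lay in bins that were A in both genotypes and 33.6% in bins that were B in both. Bins that switched from B to A held 10.2% of new peaks (9.76 to 10.6) and made up 5.87% of bins, and the A-to-B bins held 7.66% and made up 5.95%. As densities, B-to-A bins had 12.2 new peaks per Mb, A-to-B bins 9.07, stable A bins 6.94 and stable B bins 6.07. Kept peaks were densest in A-to-B bins, at 38.8 per Mb, and lost peaks in stable B bins, at 30.1 per Mb. The order of the switching classes depended on the rule: with a reciprocal overlap of 50%, B-to-A bins held 7.89% and A-to-B bins 10.3% of new peaks.

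**Figure D2:**
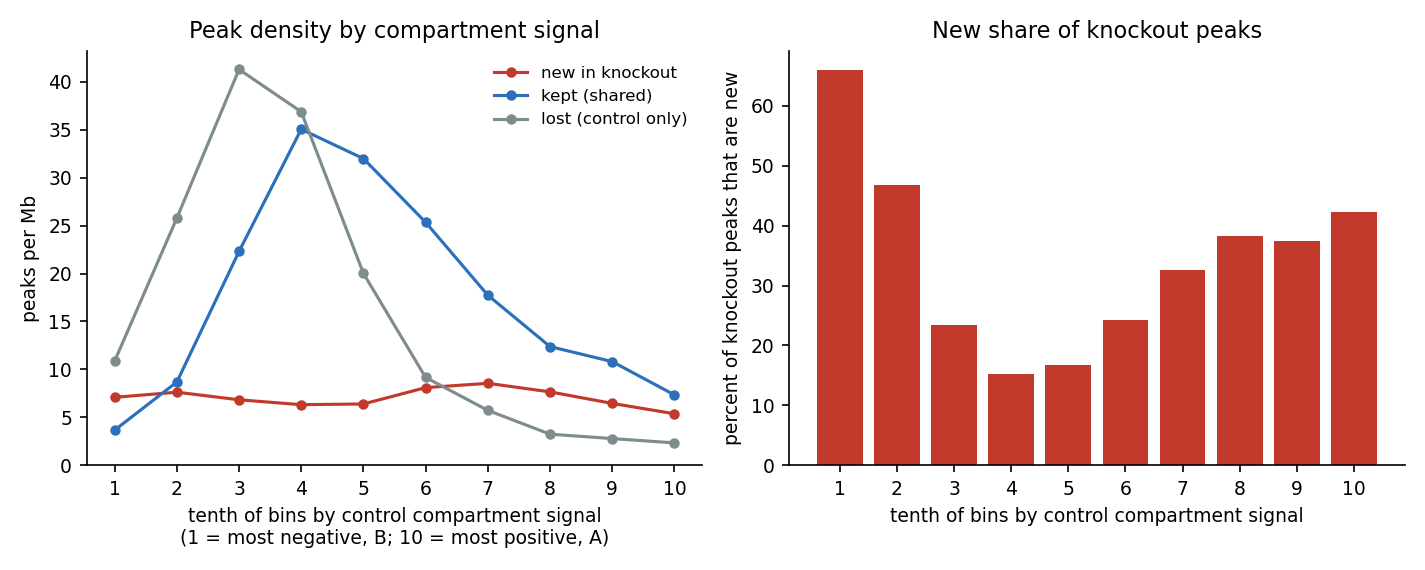
Left, peaks per Mb in 10 equal groups of 100 kb bins ordered by control compartment signal, for new (red), kept (blue) and lost (grey) H3K27me3 peaks; right, percent of knockout peaks in each group that are new. New peaks stay between 5.38 and 8.55 per Mb across the groups, and their share of knockout peaks is 65.9% in the most negative group.

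By count, the new peaks were nearly even across the strength of the compartment signal. From the most B-like to the most A-like of 10 equal groups of bins, their density stayed between 5.38 and 8.55 per Mb. Kept peaks ranged from 3.67 per Mb in the most negative group to 35.04 per Mb in the fourth and 7.35 per Mb in the most positive. The new share of the knockout list therefore ran from 65.9% in the most negative group to 15.3% in the fourth and 42.3% in the most positive. Taken over peaks, the median change in the compartment signal of the peak's bin, knockout minus control, was 0.010 for new, -0.13 for kept and -0.26 for lost peaks. Taken over bins, it was -0.021 in the 7904 bins holding part of a new peak, the opposite sign, and -0.045 in all bins. With each column divided by its standard deviation these became -0.065 and -0.078.

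The compartment signal is the measure at these sites that has replicates and that the rule did not use. Each bin was tested with limma, 2 knockout against 2 control columns, with Benjamini-Hochberg adjustment over all bins. Over all 26503 bins, 21.5% were called higher and 37.3% lower in the knockout at an adjusted p under 0.05. Among the 7904 bins holding part of a new peak, 27.4% were higher and 34.5% lower. The split depended on where the bin started and on how much of it new peaks covered. The call of a bin says nothing of which change came first.

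In B bins with much new H3K27me3 the signal moved toward A. Among the 609 control B bins at least 10% covered by new peaks, 79.6% were called higher and 5.09% lower, beside 27.1% and 42.6% of all 11866 control B bins. Their mean signal was -0.70 and -0.69 in the control replicates and -0.21 in both knockout replicates. The genotypes did not overlap in these bins, nor over all bins, at 0.095 and 0.098 against 0.060 and 0.058. B bins with a new but no kept peak were higher in 74.9% of 1031 cases, and B bins with kept but no new peaks in 17.7% of 2727. In control A the picture was the opposite: of 437 bins at least 10% covered, 8.92% were higher and 53.5% lower, beside 17.0% and 32.9% of all 14637 A bins. With each column divided by its standard deviation, higher bins made up 24.0% of the called A bins in place of 34.1%, and 83.4% of the 609 B bins were called higher.

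H3K9me3 was the mark that control cells most often had at the sites of new peaks. Its control list also covered the most sequence, 11.3% of the assembled length, against 3.59% for H3K27ac, 3.28% for H3K4me3 and 0.212% for CTCF. A control H3K9me3 peak overlapped 4106 of the 19550 new peaks (21.0%, interval 20.4 to 21.6), against 48.05% of kept and 28.8% of lost peaks. The new share was below the kept share on 23 of 23 chromosomes and below the lost share on 22. Among peaks of at most 1085 bp, 15.0% of new and 32.4% of kept peaks overlapped control H3K9me3. At the peak centre alone, 13.5% of new, 29.2% of kept and 19.97% of lost peaks had control H3K9me3. For new peaks in control A the centre share was 7.83%, below the 9.89% of A bins that control H3K9me3 covered. For those in control B it was 18.6%, above the 15.5% of B bins covered.

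Around the centres the 3 sets had different shapes. Control H3K9me3 at new peaks was lower at the centre, 13.5%, than at 10 kb on either side, 17.0%. At kept peaks it was higher at the centre, 29.2% against 16.9%, and likewise at lost peaks, 19.97% against 10.9%. Knockout H3K9me3 was slightly higher at the centres of new peaks, 14.7% against 13.1% at 10 kb. Of the 3 sets, only the new peaks had less control H3K9me3 at the centre than at 10 kb. By the rule, control H3K27me3 lay at 0% of new centres, against 88.7% of kept and 100% of lost centres. The contrast between the sets may therefore be partly set by the rule, which was not tested.

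**Figure D3:**
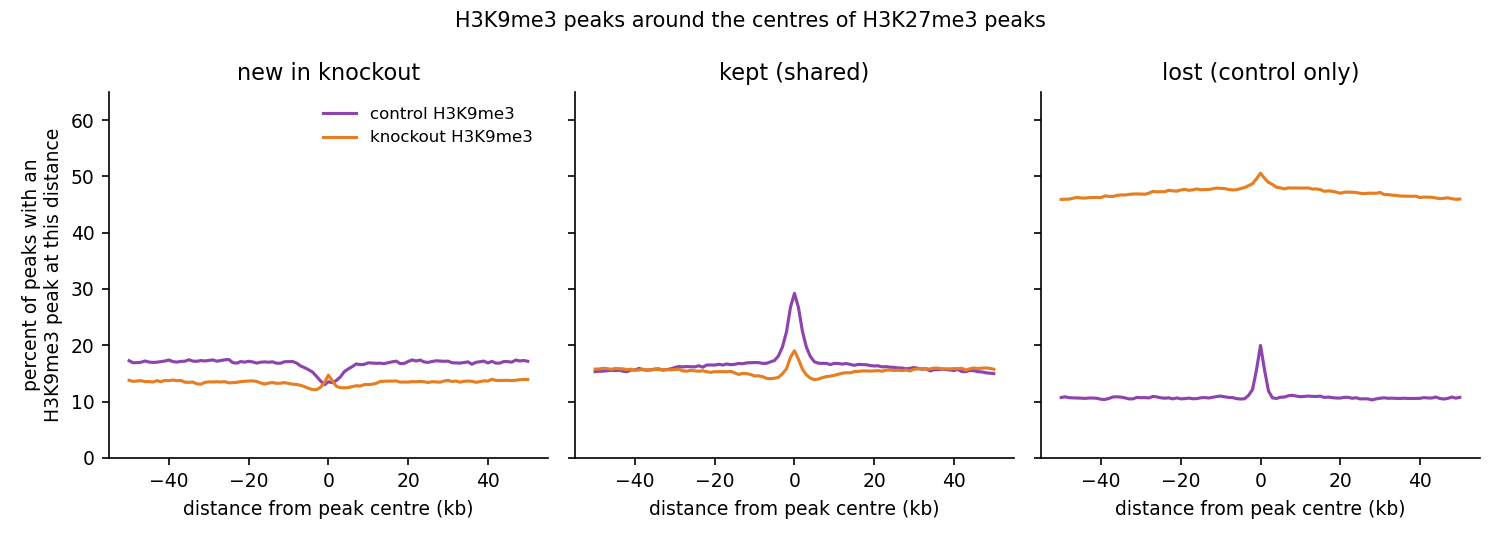
Percent of new, kept and lost H3K27me3 peaks (panels from left to right) that have an H3K9me3 peak of the control (purple) or knockout (orange) list at each distance (kb) from the peak centre. Control H3K9me3 dips to 13.5% at the centres of new peaks and peaks at 29.2% and 19.97% at those of kept and lost peaks.

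Width separated a small group of new peaks from the rest. Control H3K9me3 covered 13.0% of the length of new peaks under 1 kb, 11.6% at 1 to 2 kb, 14.2% at 2 to 5 kb, 23.0% at 5 to 10 kb, 38.6% at 10 to 20 kb and 71.6% in the 43 peaks of 20 kb or wider. In kept peaks of 20 kb or wider it covered 37.0%, and in lost peaks of that width 16.7%. Of the 43 wide new peaks, 31 (72.1%, interval 57.3 to 83.3) had at least 50% of their length under control H3K9me3. Knockout H3K9me3 covered 39.0% of the same 43 peaks. Chromosome 19 held 15 of the 43, and over the other 28 control H3K9me3 covered 52.7%, with 16 peaks (57.1%, interval 39.1 to 73.5) at least 50% under it.

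**Figure D4:**
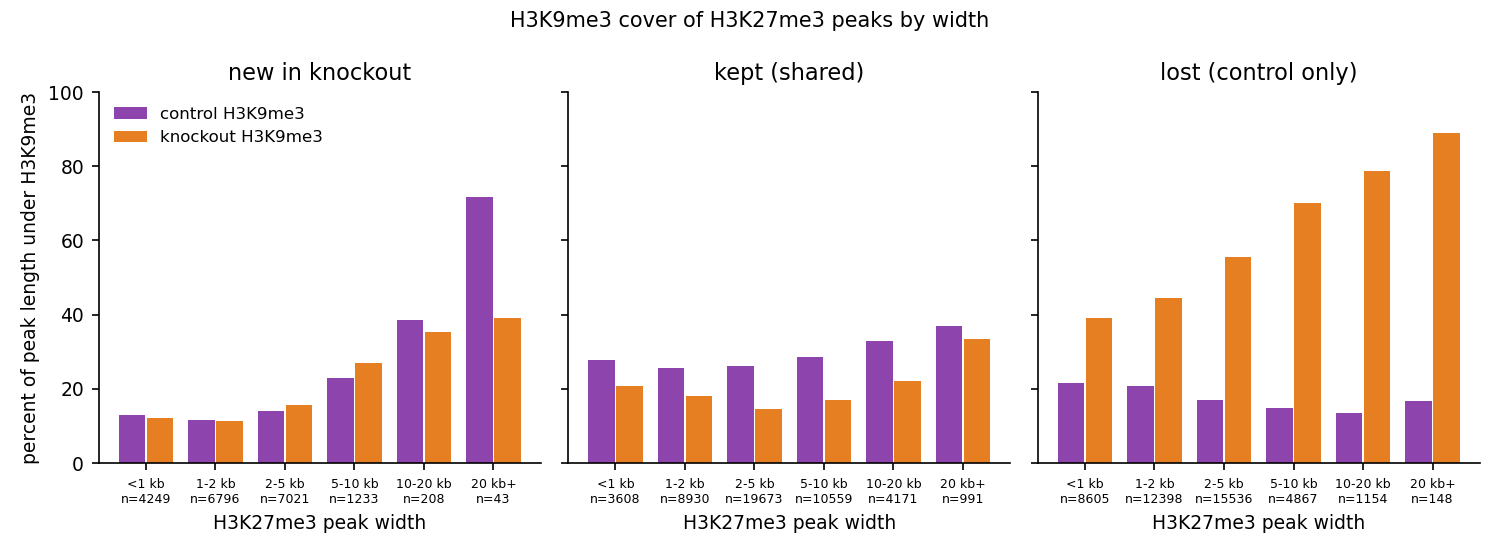
Percent of the summed length of new, kept and lost H3K27me3 peaks (panels) that lies under control (purple) or knockout (orange) H3K9me3 peaks, by peak width, with the number of peaks under each pair of bars. Control H3K9me3 covers 13.0% of new peaks under 1 kb and 71.6% of those of 20 kb or wider, and in lost peaks of that width the knockout bar stands at 88.9%.

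H3K9me3 at new peaks differed by compartment. In control A, 11.6% of new peaks had H3K9me3 in the control list only, 1.22% in both lists and 2.67% in the knockout list only, and 84.5% had none in either. In control B the shares were 13.4%, 15.8%, 23.2% and 47.6%. Lost peaks of control B stood apart from both, with knockout-only H3K9me3 at 53.5%. New peaks in B-to-A bins had H3K9me3 in 31.5% of cases in control and 16.1% in knockout, and those in stable B bins in 28.5% and 45.9%. As lengths, new peaks covered 4.71% of the B-to-A sequence whose H3K9me3 was in the control list only, 4.21% of such sequence in stable B bins and 1.07% in stable A bins. Of the sequence with H3K9me3 in both lists they covered 18.4%, 1.79% and 1.23% in those bin classes, and of the sequence without control H3K9me3 3.48%, 1.43% and 1.42%. In B-to-A bins new peaks thus covered the greatest share of the sequence that had H3K9me3 in both lists. That sequence made up 1.88 Mb there, against 25.3 Mb in the control list only. Kept peaks had the same order there and covered more of each. Their shares were 61.4% with H3K9me3 in both lists, 11.1% in the control list only and 6.69% without control H3K9me3.

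Control H3K9me3 under new peaks was found again about as often as over the whole control list. Of 3746 control H3K9me3 peaks under a new peak, 39.6% (interval 38.03 to 41.2) overlapped a knockout H3K9me3 peak, beside 39.97% of the whole control list and 39.5% under no H3K27me3 peak of either genotype. The share was lower under kept peaks, 37.2% (36.6 to 37.8), and higher under lost peaks, 48.1% (47.2 to 49.0). Neither interval overlapped that of new peaks, but all of them cover counting error only and do not test a difference.

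Active marks were rare at the future sites. Control H3K4me3 overlapped 677 new peaks (3.46%, interval 3.22 to 3.73), against 6.40% of kept and 2.08% of lost peaks. At the centre the order turned, with 0.788% of new and 0.524% of kept peaks, so the comparison with kept peaks depends on the overlap used. Control H3K27ac overlapped 71 new peaks (0.363%, interval 0.288 to 0.458), against 0.129% of kept and 0.0773% of lost peaks. Kept and lost peaks have control H3K27me3 by the rule and new peaks do not, so this order may be partly set by the rule. Control H3K27ac lay at the centre of 19 new peaks (0.0972%), while it covered 3.59% of the assembled length. Of the 71, 58 also had control H3K4me3, the combination known for active promoters. A control H3K27ac or H3K4me3 peak marked 690 new peaks together (3.53%), and 84.98% of those with a bin value lay in control A.

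Under the new peaks the active marks behaved differently from each other. Of 69 control H3K27ac peaks under a new peak, 34 (49.3%, interval 37.8 to 60.8) overlapped a knockout H3K27ac peak, beside 73.1% of the whole control list. Of 673 control H3K4me3 peaks under a new peak, 87.2% (84.5 to 89.5) were still there in the knockout, beside 85.1% of the whole list. For H3K27ac the share was 63.5% (51.1 to 74.3) under kept and 97.0% (84.7 to 99.5) under lost peaks. For H3K4me3 it was 87.7% under kept and 63.4% under lost peaks. All of these intervals cover counting error only and do not test a difference. New and kept peaks have knockout H3K27me3 by the rule and lost peaks do not, so the order of H3K27ac may be partly set by the rule. The 69 H3K27ac peaks under new peaks are 0.124% of the control list.

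H3K4me3 was more frequent at new peaks in the knockout than in the control list, at 5.59% against 3.46%, and this difference lay in the B compartment. In control A the shares were 5.53% in the knockout and 5.41% in the control list. In control B they were 5.62% (interval 5.14 to 6.14) and 1.20% (0.986 to 1.46), and in B-to-A bins 8.25% and 1.10%. A higher knockout share was not particular to new peaks. For kept peaks the shares were 8.91% and 5.58% in control B, 12.1% and 4.43% in B-to-A bins, and 8.84% and 7.32% in control A. For lost peaks in B-to-A bins they were 12.1% and 3.21%. Knockout-only H3K4me3 peaks overlapped 480 new peaks (2.46%) and 2.96% of kept peaks. The knockout H3K4me3 list was also the longer one, with 69459 peaks against 56854, and covered 1.498% of B bins in place of 0.846%. H3K4me3 and H3K27me3 in 1 list each do not show that both sat on the same molecule or in the same cell.

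CTCF was infrequent at these sites. Control CTCF overlapped 303 new peaks (1.55%, interval 1.39 to 1.73), beside 3.27% of kept and 1.42% of lost peaks, and sat at the centre of 0.143% of new peaks, where CTCF peaks cover 0.212% of the assembled length. Of the 321 control CTCF peaks under a new peak, 27.4% (22.8 to 32.5) overlapped a knockout CTCF peak, against 38.7% under kept peaks, 12.8% under lost peaks and 59.3% of those under no H3K27me3 peak. The CTCF peaks under H3K27me3 peaks of any of the 3 sets were thus found again less often than elsewhere.

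Most new peaks had none of the 4 other marks in control cells. Of the 19550, 14660 (74.99%, interval 74.4 to 75.6) overlapped no control H3K9me3, H3K27ac, H3K4me3 or CTCF peak, compared with 47.6% of kept and 69.0% of lost peaks. These unmarked new peaks were narrow, with a median of 1670 bp, and had a kept peak at a median of 9641.5 bp. Of those with a bin value, 60.3% lay in control A. The 4039 new peaks with control H3K9me3 and no active mark (20.7%) differed on each count. Their median width was 2285 bp, and the nearest kept peak was at a median of 56575 bp. Of those with a bin value, 35.6% lay in A and 16.1% in B-to-A bins. Counting a mark at the centre in place of any overlap left 85.6% of new peaks unmarked. The control lists covered 11.3% (H3K9me3), 3.59% (H3K27ac), 3.28% (H3K4me3) and 0.212% (CTCF) of the assembled length. Most of the genome was thus also without these marks.

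The 10 widest new peaks show the H3K9me3-rich end of the set. The widest, chr19:57385500-57472814, lay wholly under control H3K9me3 and was 53.3% covered in the knockout. It sat in a bin of stable B whose signal was -1.48 and -1.49 in the control and -0.88 and -0.86 in the knockout replicates, a difference of 0.62 (SE 0.041, limma adjusted p = 5.9e-07). Of the 10, 6 lay side by side here, the others being chr19:57260846-57306456, chr19:57307135-57347989, chr19:57475662-57516384, chr19:57529942-57570813 and chr19:57571760-57610129. Each was 96.7% to 100% under control H3K9me3. In the 600 kb around the widest peak, H3K27me3 covered 0.822% in the control and 82.9% in the knockout, and H3K9me3 98.4% and 32.0%. Chromosome 19, known for its clusters of KRAB zinc finger genes, held 26 of the 100 widest new peaks, chromosome 7 held 17 and X held 12. No annotation of this build was used, so no gene is assigned to these positions.

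**Figure D5:**
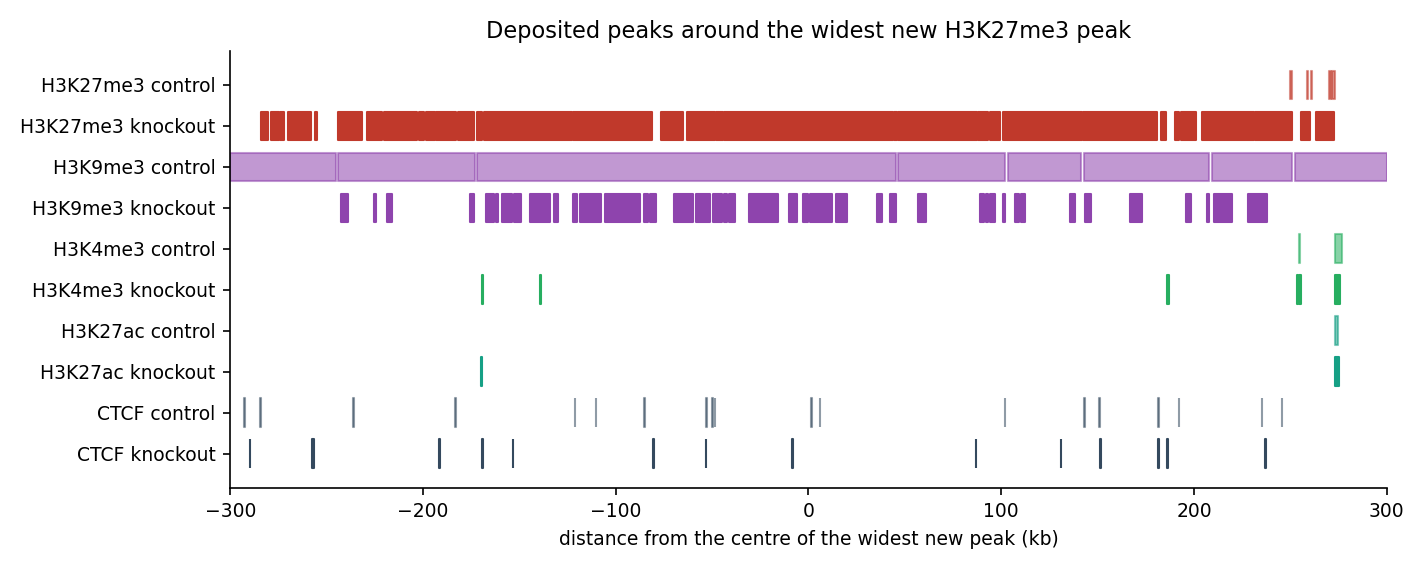
Deposited peaks of each mark in control (pale) and knockout (dark) cells over 600 kb around the widest new H3K27me3 peak, by distance in kb from its centre. The knockout H3K27me3 row is 82.9% filled and the control row 0.822%, while control H3K9me3 fills 98.4% and knockout H3K9me3 32.0% of the window.

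The remaining 4 of the widest 10 were less alike. At chr5:178357711-178394730 control H3K9me3 covered the whole peak and knockout H3K9me3 34.8%, and the bin switched from B to A, with -0.40 and -0.38 in the control and 1.08 and 1.18 in the knockout replicates (limma adjusted p = 8.0e-09). At chr7:63865209-63904120 and chr7:63425304-63457891 control H3K9me3 covered 72.3% and 96.3% and knockout H3K9me3 24.4% and 11.2%, and the bins had no compartment value. The second widest, chrX:116131897-116195061, went the other way. Control H3K9me3 covered 1.33% of its 63165 bp and knockout H3K9me3 49.9%, the nearest kept peak was 1005.01 kb away, and its bin rose from -0.998 and -0.97 to 0.44 and 0.40 (limma adjusted p = 6.9e-09).

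The widest peaks of the other control classes were smaller. With control H3K27ac or H3K4me3 they were chr2:1024117-1046721, chr5:123086502-123104792 and chr14:89242392-89258491. Control H3K4me3 covered 5.75%, 9.70% and 7.19% of them and knockout H3K4me3 6.43%, 7.99% and 3.24%. Control H3K9me3 covered more of each, at 62.0%, 54.3% and 20.6%. With control CTCF alone they were chr11:26439325-26462452, chr3:102378949-102392097 and chr3:6174008-6185430, all in stable B bins. Their control CTCF peaks had no knockout CTCF peak in the same H3K27me3 peak, and knockout H3K9me3 covered 36.8%, 16.6% and 62.6% of their length. With none of the 4 marks they were chr13:81446260-81470836, chr5:83768269-83790053 and chr4:118772852-118794512. The peaks on chromosomes 13 and 4 lay in bins that switched from B to A, with differences of 1.08 and 1.35 (limma adjusted p = 1.6e-08 and 8.0e-09), and the chromosome 13 peak had no other mark in the knockout either.

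The 3 new peaks farthest from a kept peak lay beside each other at chr5:23092002-23092836, chr5:23096472-23099873 and chr5:23101637-23104626, with gaps of 4359.9 kb or more. All 3 were wholly under knockout H3K9me3, and control H3K9me3 covered 0%, 16.5% and 100% of them. They belonged to stable B bins that were called higher, by 0.33 and 0.29 (limma adjusted p = 9.7e-05 and 0.00026).

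By 100 kb bins, the greatest new length was again on chromosome 19. The 4 adjoining bins from 57200001 to 57600000 were 93.4%, 90.7%, 98.4% and 96.0% new, and the bin from 22600001 to 22700000 was 86.9% new. In these 5 bins control H3K27me3 and kept peaks covered 0%, control H3K9me3 97.4% to 100%, and knockout H3K9me3 20.9% to 63.5%. All 5 remained B in both genotypes and were called higher, by 0.54 to 0.71. The 3 longest runs of neighbouring bins at least 10% new were chr2:81300001-82500000, 28.7% new, chrX:116100001-117200000, 56.3% new, and chr19:22200001-23200000, 57.4% new. Control H3K9me3 covered 61.3%, 2.01% and 79.2% of them and knockout H3K9me3 19.01%, 25.4% and 10.6%. On chromosomes 2 and 19 H3K27me3 thus lay where less H3K9me3 was called than in control cells, and on X where more was called. In all, 1110 bins were at least 10% new, in 661 runs.

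Chromosomes differed in how much of their H3K27me3 was new. The new share of knockout peaks was highest on chromosome 19 (37.3%), X (36.2%), 17 (35.9%) and 4 (35.6%) and lowest on chromosomes 20 (20.4%) and 18 (22.3%). Control H3K9me3 overlapped 59.96% of new peaks on chromosome 19 and 35.2% on chromosome 7, but 11.8% on X and 11.7% on chromosome 4. New peaks in B-to-A bins were most frequent on X, 29.4% of its placed new peaks, and on chromosome 4, 27.9%. On chromosome 4, 17.0% of all bins switched from B to A, and on X 7.51%.

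The RNA libraries show the state of the enzymes that write and remove the mark. They held 18065062 to 48364919 counts, and 17767 genes were tested with edgeR, of which 32.8% were called higher and 30% lower in the knockout. Of 36 genes of the H3K27 pathway, 35 were tested, 10 were called higher and 13 lower, with a median log2 fold change of -0.018, against 0.0038 over all genes. With library size as the only scaling the split was 12 and 11. Nothing in the labels says that the libraries of a genotype came from separate cultures, so p-values measure the spread between libraries only.

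The PRC2 core, which writes H3K27me3, was lower in part: 4 of 6 genes fell and none rose, beside 30% lower and 32.8% higher over all genes. EZH2, its main catalytic subunit, was at 34.96, 35.3 and 36.5 CPM in control and 29.1, 29.1 and 30.9 CPM in knockout libraries, without overlap, and fell by 0.26 on the log2 scale (SE 0.056, edgeR adjusted p = 0.00018). EED, which binds the trimethyl mark and stimulates the enzyme, was at 24.3, 21.6 and 21.5 against 17.3, 16.9 and 17.2 CPM and fell by 0.39 (SE 0.068, edgeR adjusted p = 1.2e-05). SUZ12, the scaffold, fell by 0.22 and the histone-binding RBBP7 by 0.11, the latter no longer called with library size as the only scaling (-0.082), with no filter on low counts (-0.075), or without control replicate 3 (-0.095) or knockout replicate 2 (-0.097). The alternative catalytic subunit EZH1 had a log2 fold change of 0.070 and RBBP4 of -0.018, and neither passed the test, although EZH1 passed, at 0.15, without control replicate 1.

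The factors that guide PRC2 were mixed. JARID2 and MTF2, which help bring the complex to CpG islands, fell by 0.23 and 0.39, and PHF1, a Polycomb-like protein, rose by 0.39. AEBP2, PHF19 and EPOP had log2 fold changes of 0.13, -0.078 and 0.099 and did not pass. AEBP2 passed in 5 of the alternatives, among them without control replicate 1 (0.16) or knockout replicate 3 (0.17), and PHF19 with upper-quartile scaling (-0.11). EZHIP had 0 counts in all 6 libraries. Both H3K27 demethylases rose, KDM6A by 0.17 and KDM6B by 0.55, KDM6B from 4.46, 5.91 and 4.09 CPM to 5.81, 7.61 and 6.86 CPM, values that overlap between the genotypes. The acetyltransferases of the same residue, EP300 and CREBBP, rose by 0.14 and 0.26. EP300 was no longer called by DESeq2 (0.14), with upper-quartile scaling (0.10), or without control replicate 3 (0.10), knockout replicate 1 (0.089) or knockout replicate 2 (0.14).

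Of 19 genes of PRC1, which reads H3K27me3 and ubiquitinates H2A, 5 rose and 7 fell, shares near the 32.8% higher and 30% lower over all genes. The largest falls were CBX2, a chromodomain reader, by 0.69, and PCGF1, of a variant complex, by 0.62. The largest rises were PHC1, a polyhomeotic subunit, by 0.68, and RYBP, of variant complexes, by 0.38. New H3K27me3 peaks were thus recorded in cells with lower mRNA of 4 core subunits and higher mRNA of both demethylases, and the part of these changes in the peaks was not tested.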

How the data were processed

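RNA-seq, ChIP-seq and in situ Hi-C were made from A549 control and SETDB1 knockout cells. The members and all lists were chosen with earlier results of these data known. Peak and TAD lists were used as the authors deposited them, positions without a score; the build is hg19 and the tools named are Bowtie2 2.2.3, SAMtools 1.5, Picard, MACS2, STAR 2.6.1c and edgeR 3.30.0, per the submitters' processing notes. Chromatin for histone marks was cut with MNase and for CTCF sonicated, per the labels' protocols. Peak threshold and pooling of libraries are not given in the sources used here. The compartment score per 100 kb bin is the authors' deposited value, of unstated scale. Raw counts per gene were deposited by the authors, from a stranded kit per the labels; the strand setting of the counting is not given, so overlapping antisense genes may share reads.

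Peaks were compared in Python 3.11.15 with numpy 2.4.6, pandas 2.3.3 and scipy 1.17.1, counting an overlap of at least 1 bp; a peak took the bin of its centre. Bins were tested with limma 3.58.1, genes with edgeR 4.0.16 in R 4.3.3 (TMM, filterByExpr, robust quasi-likelihood), with adjusted p under 0.05 as the call; 93.8% of gene IDs had a symbol, and CPM used TMM-scaled library sizes. Each step was tested on simulated data. Deviations from the genotype mean were compared between same-numbered replicates of the 2 genotypes. They correlated by 0.11, 0.064 and 0.047 for RNA and by -0.0026 for Hi-C, so numbers were not taken as pairs. Every pair of RNA libraries of 1 genotype differed by more than counting noise (lowest chi-square per degree of freedom 1.66). No per-sample column went unmapped (0 columns). Regions were named by rank: the 10 widest new peaks, the 3 widest per control class, the 5 bins with most new length, the 3 longest runs of bins and the 3 peaks farthest from a kept peak; genes were SETDB1, every PRC2, demethylase and acetyltransferase gene and the 2 largest called changes each way of PRC1. Alternatives were other overlap rules, list filters, scalings, tests, left-out replicates and the replicate number as a block. Genes at new peaks and the sequences were not analysed here.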

Additional observations from a re-analysis of the deposited data

How the results depend on the processing

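Of 115 repeats of the main results, 78 stayed within counting error (for shares and medians) or 1.5 times (for counts) of the reported value and 37 moved. Requiring a reciprocal overlap of 50% gave 60.1% new peaks, a median width of 2146 bp, a median distance of 13320 bp, 49.3% in A, 7.89% in B-to-A and 10.3% in A-to-B bins, 31.2% with control H3K9me3, 0.229% with H3K27ac, 4.14% with H3K4me3, 2.14% with CTCF, 64.8% with none, and 33.5% of control CTCF peaks found again. Requiring no control peak within 1 kb gave 26.9% new, 1812 bp and 14154 bp. Merging within 1 kb gave 1865 bp, 15118 bp, 21.7% with H3K9me3 and 74.0% with none. The wider 50% of each list gave 29.8% new, 3962.5 bp, 23070.5 bp, 8.50% in A-to-B bins, 34.2% with H3K9me3, 4.98% with H3K4me3, 3.25% with CTCF and 60.3% with none. Autosomes alone gave 28.6% new, 57.3% in A, 8.92% in B-to-A bins, 21.6% with H3K9me3 and 74.2% with none. Peak centres gave 13.5% with H3K9me3, 0.0972% with H3K27ac, 0.788% with H3K4me3, 0.143% with CTCF and 85.6% with none. The cause of these shifts was not tested.

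With the replicate number as a block, 15976 bins, 5029 bins with a new peak, 11655 genes and 25 Polycomb genes were called, in place of 15584, 4895, 11157 and 23; the block left these counts within 1.5 times. Leaving out 1 replicate at a time gave 12625 to 15344 bins, 3996 to 4844 bins with a new peak, 10174 to 11085 genes and 20 to 26 Polycomb genes. For single genes, 370 of 396 repeats kept the call, 15 lost it, 11 gained it and none turned its direction among called genes. Chosen after seeing the data, leaving out chromosome 19 gave 78.7% of B bins at least 10% new called higher, and leaving out single Hi-C replicates 75.2% to 78.7%. With 1 list per genotype and mark, neither depth nor replicate spread of any peak can be given.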
